A study of Mus musculus with 12 samples.

Results

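The genes described here are 46 members of the DNA repair gene families among the 24532 genes of a count table from mouse liver. They were chosen by symbol, with earlier results of these data known. The symbols are the Fanconi anemia genes Fanca to Fancm, symbols that begin with Rad50 to Rad54, Xrcc1 to Xrcc6, Ercc1 to Ercc8, the Msh and Mlh mismatch repair families, Brca1, Brca2, and the kinase genes Atm, Atr, Chek1 and Chek2. The table holds whole liver RNA of 12 mice of the mixed strain C57BL/6x129S6/SvEv at an age of 20 wk. The 4 KO-Drug mice were Atp7b-/- and received an agonist of the liver X receptors (LXR, nuclear receptors for oxysterols) in their food, the 4 KO mice were Atp7b-/- without the agonist, and the 4 Het mice were the heterozygous controls. Atp7b encodes the copper-exporting ATPase of hepatocytes whose loss causes Wilson disease. Sex, litter, the identity and dose of the agonist and the deleted stretch of Atp7b are not stated in the labels.

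DNA repair runs along several routes. The kinases Atm and Atr sense breaks and stalled replication forks and activate Chek2 and Chek1, homologous recombination copies the sister chromatid with the help of Brca1 and Brca2, and the Fanconi anemia complex opens crosslinked forks. End joining through Xrcc4, Xrcc5 and Xrcc6 needs no template and runs at any cell cycle stage, nucleotide excision repair removes bulky adducts, and mismatch repair follows the replication fork. Most hepatocytes of an adult liver do not divide, and the recombination and fork-protection genes are known to be transcribed mainly in the S and G2 phases of cycling cells.

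In units of 1e6 counts, libraries held 18.8 to 20.2 in KO-Drug, 16.5 to 28.3 in KO and 19.7 to 25.1 in Het. Levels are CPM (counts per 1e6 counts on library sizes scaled by TMM, the trimmed mean of M values), given as mean ± SD with n = 4 per group. Changes are on the log2 scale, tested with the quasi-likelihood test of edgeR, with p-values adjusted by Benjamini-Hochberg over all 13379 genes that passed a filter on low counts, and genes with an adjusted p under 0.05 are referred to as called. Nothing in the labels beyond the animal numbers says that the libraries are separate mice, so the p-values measure the spread between these libraries. Atp7b stood at 2.22 ± 1.11 CPM in KO-Drug and 2.09 ± 0.475 CPM in KO, against 12.8 ± 2.62 CPM in Het (log2 change -2.61 in KO vs Het, SE 0.32, adjusted p = 5.29e-05). Xist, the RNA of the inactive X chromosome of females, was high in KO 5 (81.8 CPM) and lower in KO 6 (17.8 CPM). It was at most 0.425 CPM in the other 10 libraries. Y-linked Ddx3y was nearly absent from KO 5 (0.379 CPM). Its level was 64.4 CPM in KO 6 and 79.5 to 111 CPM in the other 10 libraries. KO 6 thus held both RNAs, and the reason was not tested. Counts over all members in KO vs Het and in KO-Drug vs KO are therefore repeated below on KO 2 and KO 4 alone. Hepatocyte markers such as albumin were abundant in every library, with a summed level of 58423 to 79811 CPM in KO-Drug, 33736 to 62451 CPM in KO and 73131 to 123073 CPM in Het.

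The start regions of 4 members called in KO vs Het are shown because several repair genes are known targets of E2F and NF-Y, factors that time transcription to S phase and G2. RefSeq windows of 300 bases (250 before to 50 after the annotated start, GRCm38.p6, the assembly of mm10) were found for 37 of the 46 members. The windows below read 5′ to 3′ along the gene, in lower case, with matches to TTTNNCGC (an E2F-like motif) and CCAAT (the NF-Y box) on either strand in capitals. They lie at chr5:110839733-110840032 on the plus strand for Chek2, chr5:150522371-150522670 on the plus strand for Brca2, chr11:101551906-101552205 on the minus strand for Brca1 and chr7:79392088-79392387 on the plus strand for Fanci.
Chek2: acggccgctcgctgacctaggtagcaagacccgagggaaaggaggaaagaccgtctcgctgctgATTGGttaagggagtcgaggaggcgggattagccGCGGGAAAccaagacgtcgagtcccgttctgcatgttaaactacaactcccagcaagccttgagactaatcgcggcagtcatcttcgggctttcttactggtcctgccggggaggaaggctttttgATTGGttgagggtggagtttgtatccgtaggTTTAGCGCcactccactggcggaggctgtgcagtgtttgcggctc
Brca2: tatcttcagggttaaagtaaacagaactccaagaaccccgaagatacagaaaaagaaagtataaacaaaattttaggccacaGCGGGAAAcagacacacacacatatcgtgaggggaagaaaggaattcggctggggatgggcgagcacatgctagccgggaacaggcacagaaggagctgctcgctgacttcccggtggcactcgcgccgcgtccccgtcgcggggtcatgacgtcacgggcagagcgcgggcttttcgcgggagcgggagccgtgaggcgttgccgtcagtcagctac
Brca1: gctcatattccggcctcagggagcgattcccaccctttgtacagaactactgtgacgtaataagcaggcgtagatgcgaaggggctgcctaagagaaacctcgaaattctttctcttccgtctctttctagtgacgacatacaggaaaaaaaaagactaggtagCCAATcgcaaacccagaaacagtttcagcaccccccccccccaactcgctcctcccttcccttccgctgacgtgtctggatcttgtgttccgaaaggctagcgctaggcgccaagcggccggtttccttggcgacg
Fanci: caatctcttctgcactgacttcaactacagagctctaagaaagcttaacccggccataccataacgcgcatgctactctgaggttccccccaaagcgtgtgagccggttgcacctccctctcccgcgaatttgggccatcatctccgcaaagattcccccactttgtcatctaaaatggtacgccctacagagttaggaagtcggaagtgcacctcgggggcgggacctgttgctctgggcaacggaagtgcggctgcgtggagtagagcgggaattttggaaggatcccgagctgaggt
Chek2 has E2F-like matches whose first bases lie 152 bases before and 6 bases after the start, and CCAAT on the opposite strand 186 and 26 bases before it. Brca2 has 1 E2F-like match 168 bases before the start, Brca1 has CCAAT 86 bases before the start, and Fanci has no match to either motif. TTTNNCGC was present in 10 of the 37 member windows (27%) and in 5.27% of all 27025 windows, and CCAAT in 23 of 37 (62.2%) and 37.9%. Another motif, TTTGAA, the core of the cell cycle homology region, was in 2 of 37 member windows (5.41%) and 18.1% of all windows. Among members with a window, TTTNNCGC was in 4 of 14 that were called higher in KO vs Het, in 2 of 4 called lower and in 2 of 16 not called. A match is a description of the letters and not a measured site.

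KO vs Het asks what the absence of Atp7b did to repair gene RNA. By route, 7 of 13 recombination genes, 5 of 9 Fanconi anemia genes, 2 of 4 checkpoint genes, 2 of 4 end joining and single-strand break genes, 2 of 7 nucleotide excision genes and 0 of 5 mismatch repair genes rose. Whether the routes differ in that share was not tested. Of the 43 members that passed the filter, 18 rose, 5 fell and 20 were not called. Over all genes tested, 23% were called higher and 17.7% lower. The median log2 change was 0.33 over the 43 members and 0.02 over all genes tested. In either direction, 40.7% of all genes were called. The values of the 4 KO libraries lay wholly above the 4 Het libraries for 18 members, against 22.2% of all genes, and wholly below for 5 members, against 17.1%. In whole liver, more cells of a type and more RNA per cell cannot be told apart. On KO 2 and KO 4 alone, 16 members were called higher and 6 lower.

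**Figure D1:**
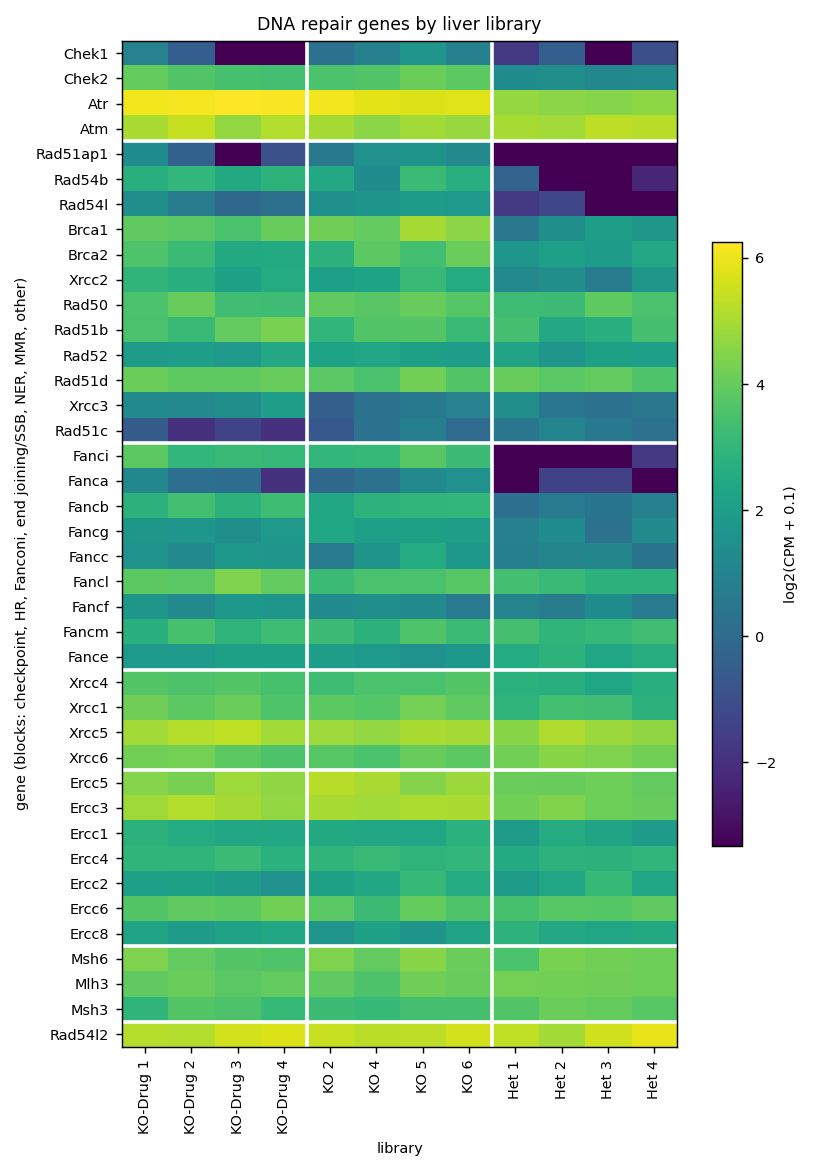
Level of 40 tested repair genes in each of the 12 liver libraries, as log2(CPM + 0.1), with genes in blocks by repair route and libraries in the order KO-Drug, KO, Het. In the homologous recombination and Fanconi anemia blocks, the upper genes are dark (low) in the 4 Het libraries and lighter in the 8 knockout libraries, while most genes of the other blocks keep an even shade across each line.

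Among the checkpoint kinases, Chek2 and Atr were higher in both knockout groups. Chek2, the effector kinase downstream of Atm, stood at 15.8, 12.5, 10.9 and 10.3 CPM in KO-Drug, at 11.5, 12.5, 17.1 and 14.2 CPM in KO and at 2.42, 2.55, 2.12 and 2.24 CPM in Het. The Het values lay close together, all below the lowest knockout value, while the KO-Drug and KO values overlapped. The KO level was 5.91-fold that of Het (log2 2.56, SE 0.19, adjusted p = 8.46e-07) and differed between KO-Drug and KO by -0.16 (95% interval -0.53 to 0.20, adjusted p = 0.536). Atr, the kinase of stalled forks, stood at 66.3, 70.4, 76.2 and 73.4 CPM in KO-Drug, at 67.3, 58.2, 53.6 and 54.8 CPM in KO and at 26.6, 23.8, 22.9 and 24.9 CPM in Het. No knockout library overlapped a Het library, and 3 of the 4 KO-Drug libraries lay above every KO library. The change was 2.38-fold in KO vs Het (log2 1.25, SE 0.11, adjusted p = 2.81e-06) and 1.54 on the log2 scale in KO-Drug vs Het (SE 0.11, adjusted p = 5.59e-07). In KO-Drug vs KO it was 0.29 (95% interval 0.07 to 0.51, adjusted p = 0.0624), and without Het 1 or without KO 2 the adjusted p was 0.0471 and 0.0384.

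Atm, the kinase of double-strand breaks, was not called in any comparison. It stood at 32.6, 42.7, 25.9 and 35.3 CPM in KO-Drug, 31.4, 24.2, 30.1 and 27.5 CPM in KO and 31.8, 29.9, 39.7 and 37.6 CPM in Het, and the 3 groups overlapped (KO vs Het -0.30, 95% interval -0.63 to 0.03, adjusted p = 0.14). Chek1, the effector kinase of Atr, stood at 1.82, 0.625, 0 and 0 CPM in KO-Drug, 1.11, 1.73, 3.12 and 1.73 CPM in KO and 0.206, 0.624, 0 and 0.408 CPM in Het. All 4 KO values lay above all Het values, and the KO-Drug values spanned both groups. It was not called in KO vs Het (log2 2.61, SE 1.03, adjusted p = 0.0588) or in KO-Drug vs KO (-1.63, 95% interval -3.71 to 0.44, adjusted p = 0.252). Leaving out KO-Drug 1, 3 or 4, which changes the shared estimate of spread, put the KO vs Het p at 0.0317, 0.0383 and 0.0382, and without KO-Drug 1 the KO-Drug vs KO change was -3.16 (adjusted p = 0.0473).

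In homologous recombination, Rad54b, Rad54l and Rad51ap1 were near 0 in Het livers and higher in both knockout groups. Of the 13 members, 7 rose in KO vs Het, none fell and 6 were not called, beside 23% higher and 17.7% lower of all genes tested.

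The Rad54 proteins are translocases of recombination. Rad54b stood at 6.26, 8.03, 5.52 and 7.22 CPM in KO-Drug, at 5.34, 2.43, 9.05 and 6.25 CPM in KO and at 0.722, 0, 0 and 0.102 CPM in Het, with no overlap between knockout and Het. Its KO vs Het ratio of levels was 29.4 (exact Clopper-Pearson 95% interval 18.0 to 51.7; 692 against 16 reads; log2 4.77, SE 0.72, adjusted p = 0.000253). Without Het 1, which holds most of the Het reads, the fitted change was 7.17, and with KO 2 and KO 4 alone it was 4.16. In KO-Drug vs Het it was 4.99 (SE 0.72, adjusted p = 0.000291), or 7.40 without Het 1. Rad54l stood at 2.57, 1.56, 0.827 and 1.06 CPM in KO-Drug, at 2.70, 2.99, 3.68 and 3.51 CPM in KO and at 0.206, 0.312, 0 and 0 CPM in Het. Each KO library lay above each KO-Drug library, and each KO-Drug library lay above each Het library. The KO vs Het ratio was 24.8 (95% interval 13.3 to 52.2; log2 4.57, SE 0.67, adjusted p = 0.000209). KO-Drug vs KO was -1.09 (95% interval -2.19 to 0.02, adjusted p = 0.153) and KO-Drug vs Het 3.49 (SE 0.68, adjusted p = 0.00263). Without Het 2 the fitted changes against Het were 5.43 in KO and 4.34 in KO-Drug.

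Brca1, the scaffold and ubiquitin ligase subunit that starts recombination, stood at 15.1, 13.7, 11.3 and 16.4 CPM in KO-Drug, at 18.2, 15.6, 30.9 and 24.0 CPM in KO and at 1.34, 2.60, 3.92 and 3.27 CPM in Het. Both knockout groups lay above Het without overlap, and 1 KO-Drug library exceeded the lowest KO library. The KO level was 7.98-fold that of Het (log2 3.00, SE 0.30, adjusted p = 1.09e-05). The KO-Drug vs KO change of -0.65 missed the threshold (95% interval -1.23 to -0.07, adjusted p = 0.104), and without Het 1 its adjusted p was 0.0461. Brca2, a mediator of strand exchange, stood at 12.3, 9.12, 5.52 and 5.63 CPM in KO-Drug, at 7.04, 14.4, 10.2 and 16.6 CPM in KO and at 3.25, 4.16, 3.70 and 5.46 CPM in Het. It rose by 1.54 in KO vs Het (SE 0.32, adjusted p = 0.00202) and by 0.98 in KO-Drug vs Het (adjusted p = 0.0426; 0.0512 on KO 2 and KO 4 alone), a call lost without Het 1, 2 or 3 or without KO-Drug 1 or 2 (adjusted p 0.0817 to 0.144).

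Rad51ap1, which helps strands pair, stood at 2.42, 0.677, 0 and 0.425 CPM in KO-Drug, at 1.35, 2.75, 3.04 and 2.20 CPM in KO and at 0 in all 4 Het libraries. Against a floor of 3 reads over the Het group it was at least 59.1-fold higher in KO (261 reads, adjusted p = 0.00193) and at least 23.4-fold higher in KO-Drug (69 reads, adjusted p = 0.0133). KO-Drug 1 held most of the KO-Drug reads. Without it the fitted KO-Drug vs Het change, which has no measured size against 0, was 6.07 in place of 7.31, and KO-Drug vs KO was -2.64 (adjusted p = 0.037) in place of -1.39 (SE 0.81, adjusted p = 0.259). Such bounds and ratio intervals cover counting error only. In 11 of the 12 libraries fewer genes held 1 read than 2, and 49 genes in KO-Drug, 77 in KO and 41 in Het had at least 10 reads in 3 libraries and 0 in the other, so a listed 0 may stand for a few reads. Xrcc2, a recombination mediator, rose by 1.31 (SE 0.29, adjusted p = 0.0032), or by 0.83 with KO 2 and KO 4 alone, and by 1.36 in KO-Drug vs Het (adjusted p = 0.005).

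The other recombination genes were not called in KO vs Het. Rad50, the coiled-coil subunit of the end-resection complex, changed by 0.37 in KO vs Het (adjusted p = 0.137; 0.52 with adjusted p = 0.0439 without Het 3). Rad51b, Rad51d and Rad52 changed by 0.33, -0.05 and 0.12 and were not called. Rad51c and Xrcc3, mediators that bind each other, were not called in KO vs Het and were the 2 members called in KO-Drug vs KO, in opposite directions, as given below.

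**Figure D2:**
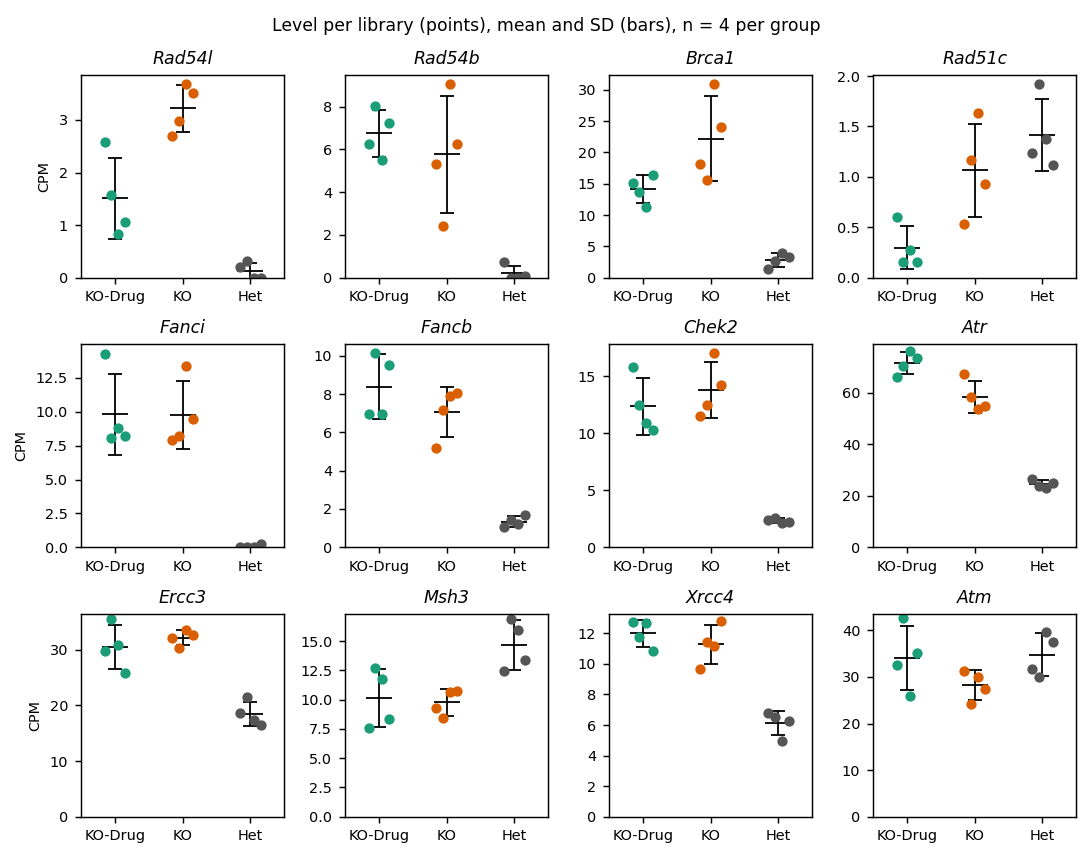
CPM of 12 repair genes in each library (points) with the group mean and SD (bars), n = 4 per group, for KO-Drug, KO and Het. Rad54l, Rad54b, Fanci, Fancb, Chek2, Brca1 and Atr are high in KO-Drug and KO and low in Het without overlap, Msh3 is lower in KO than in Het, Rad51c is lowest in KO-Drug, and Atm overlaps in all 3 groups.

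In the Fanconi anemia family, 5 of 9 members rose in KO vs Het and 1 fell, beside 23% and 17.7% of all genes tested. Fanci, the subunit that is ubiquitinated with Fancd2 at a crosslinked fork, stood at 14.3, 8.08, 8.77 and 8.18 CPM in KO-Drug, at 7.95, 8.21, 13.4 and 9.46 CPM in KO and at 0, 0, 0 and 0.204 CPM in Het. Every knockout library lay far above every Het library, and KO-Drug overlapped KO. With 1130 reads in KO, 751 in KO-Drug and 4 in Het, all of them in Het 4, the ratio of levels was 191 in KO-Drug vs Het (exact Clopper-Pearson 95% interval 74.1 to 701) and 192 in KO vs Het (74.8 to 706). The fitted change in KO vs Het was 7.41 (SE 0.57, adjusted p = 1.35e-06), and in KO-Drug vs KO 0.01 (95% interval -0.71 to 0.73, adjusted p = 0.987). Without Het 4 all Het libraries are at 0 and the fitted value of 10.78 has no measured size. Fanci overlaps Polg in the annotation, and the count table does not state whether strand was used, so reads of the shared span cannot be told apart.

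Fancb, an X-linked subunit of the core complex, stood at 6.96, 10.2, 6.95 and 9.50 CPM in KO-Drug, at 5.19, 7.19, 7.88 and 8.07 CPM in KO and at 1.03, 1.40, 1.22 and 1.68 CPM in Het. Knockout and Het libraries did not overlap, and the change was 5.29-fold in KO vs Het (log2 2.40, SE 0.23, adjusted p = 7.65e-06), 2.65 in KO-Drug vs Het (adjusted p = 4.06e-06) and 0.25 in KO-Drug vs KO (adjusted p = 0.427). Fancg, another core subunit, stood at 3.28, 3.18, 2.65 and 3.56 CPM in KO-Drug, at 5.16, 4.11, 4.20 and 4.01 CPM in KO and at 1.75, 2.39, 1.11 and 2.35 CPM in Het. All 4 KO libraries lay above all KO-Drug libraries, and these above all Het libraries. It rose by 1.20 in KO vs Het (SE 0.24, adjusted p = 0.00188), and its call in KO-Drug vs Het (0.73, adjusted p = 0.0493) was lost in 10 of the 12 fits that left out 1 library (adjusted p 0.0552 to 0.113).

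Fancl, the ubiquitin ligase of the core complex, stood at 14.3, 13.9, 21.0 and 15.3 CPM in KO-Drug, at 9.12, 11.1, 11.3 and 13.4 CPM in KO and at 10.3, 8.73, 6.93 and 6.94 CPM in Het. KO-Drug lay above both other groups, which overlapped. It was called in KO-Drug vs Het (0.97, SE 0.19, adjusted p = 0.0023) and not in KO vs Het (0.45, adjusted p = 0.0676) or KO-Drug vs KO (0.52, 95% interval 0.13 to 0.91, adjusted p = 0.0598). Leaving out Het 1, KO 2 or KO-Drug 3 put the KO vs Het p at 0.0297, 0.0435 and 0.0496, and leaving out Het 1 or KO 6 put the KO-Drug vs KO p at 0.0449 and 0.0483. Fanca, the scaffold of the core complex, held 83 reads in KO-Drug, 196 in KO and 10 in Het, a KO vs Het ratio of 13.3 (95% interval 7.09 to 28.2; adjusted p = 0.0053, or 0.0552 with KO 2 and KO 4 alone). Its KO-Drug vs Het change of 3.00 (adjusted p = 0.0308) was lost without Het 1 or 4 or without KO-Drug 1 or 3 (adjusted p 0.0507 to 0.0957).

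Fancc, a core subunit, rose by 1.00 in KO vs Het (SE 0.36, adjusted p = 0.0419), with values of 1.41, 3.03, 5.84 and 3.34 CPM in KO and 1.65, 1.98, 2.01 and 1.17 CPM in Het. The groups overlapped through KO 2, the call was lost in 10 of 12 fits that left out 1 library (adjusted p 0.0512 to 0.165), and with KO 2 and KO 4 alone the change was 0.31 (adjusted p = 0.54). Fance, the core subunit that binds Fancd2, fell by 0.84 in KO vs Het (SE 0.18, adjusted p = 0.00281) and by 0.63 in KO-Drug vs Het (adjusted p = 0.0261). That fall in KO-Drug was lost without Het 2 or 4 or without KO-Drug 1 or 2 (adjusted p 0.054 to 0.0825). With total-count scaling neither fall was called. The changes were then -0.32 in KO vs Het (adjusted p = 0.189) and -0.45 in KO-Drug vs Het (adjusted p = 0.135). Fancf and the fork translocase Fancm changed by 0.26 and 0.05 and were not called.

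Of the 4 end joining and single-strand break repair genes, 2 rose and 1 fell in KO vs Het, beside 23% and 17.7% of all genes tested. Xrcc4, the scaffold of the ligation step of end joining, stood at 12.7, 11.7, 12.7 and 10.8 CPM in KO-Drug, at 9.68, 11.4, 11.2 and 12.8 CPM in KO and at 6.81, 6.50, 4.97 and 6.28 CPM in Het. Xrcc1, the scaffold of single-strand break repair, stood at 18.1, 14.2, 16.9 and 12.3 CPM in KO-Drug, at 14.4, 13.2, 19.1 and 14.9 CPM in KO and at 7.43, 10.2, 9.89 and 6.94 CPM in Het. In both genes the knockout groups overlapped each other and lay above Het. Xrcc4 rose by 0.88 (SE 0.14, adjusted p = 0.000457) and Xrcc1 by 0.84 (SE 0.18, adjusted p = 0.00252) in KO vs Het. Xrcc1 differed by -0.00 between KO-Drug and KO (95% interval -0.38 to 0.38).

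Neither Ku subunit, which together clamp broken ends, was called higher. Xrcc6 stood at 18.5, 19.1, 14.4 and 12 CPM in KO-Drug, at 13.6, 11.6, 16.4 and 14.4 CPM in KO and at 18.4, 23.7, 21.1 and 18.6 CPM in Het. KO lay below Het and KO-Drug overlapped both. Its fall by 0.55 in KO vs Het (SE 0.16, adjusted p = 0.0171) was lost without Het 2 (adjusted p = 0.0522) or KO 4 (0.0546) and was -0.02 with scaling by total counts (adjusted p = 0.934). Xrcc5, with 30.6, 36.7, 40.05 and 29.999 CPM in KO-Drug, 28.7, 25.9, 32.8 and 31.3 CPM in KO and 23.5, 34.7, 28.1 and 25.6 CPM in Het, overlapped in all 3 groups (KO vs Het 0.09, adjusted p = 0.662).

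Of 7 nucleotide excision repair genes, 2 rose and 1 fell in KO vs Het, near the shares over all genes tested (23% and 17.7%). Ercc3, the helicase subunit of transcription factor TFIIH that opens the helix, stood at 29.8, 35.5, 30.9 and 25.8 CPM in KO-Drug, at 32.2, 30.3, 33.6 and 32.7 CPM in KO and at 18.6, 21.5, 17.4 and 16.4 CPM in Het. KO libraries lay within a narrow band, well above Het, and the change was 1.74-fold in KO vs Het (log2 0.80, SE 0.12, adjusted p = 0.000239) and -0.08 in KO-Drug vs KO (adjusted p = 0.683). Ercc5, the endonuclease of the 3′ cut, stood at 22.7, 19.3, 28.9 and 25 CPM in KO-Drug, at 37.5, 33.0, 22.2 and 28.0 CPM in KO and at 16.8, 16.3, 17.6 and 15.5 CPM in Het. Both knockout groups lay above Het and overlapped each other. It rose by 0.87 in KO vs Het (SE 0.16, adjusted p = 0.0011). The rise by 0.53 in KO-Drug vs Het (adjusted p = 0.0322) was lost in 7 of 12 fits without 1 library (adjusted p 0.0521 to 0.0994). KO-Drug vs KO was -0.33 (adjusted p = 0.16), and -0.47 without KO 5 (adjusted p = 0.0442) and -0.52 on KO 2 and KO 4 alone (0.0418).

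Ercc8, the recognition subunit of transcription-coupled repair, stood at 4.69, 3.86, 4.47 and 5.31 CPM in KO-Drug, at 3.11, 4.34, 3.01 and 4.69 CPM in KO and at 7.12, 5.35, 5.03 and 5.56 CPM in Het. KO lay below Het by 0.61 (SE 0.20, adjusted p = 0.0273), a call lost without Het 1, KO 2 or KO 5 (adjusted p 0.0748 to 0.0795), and the change was -0.11 with total-count scaling. Ercc2, the other TFIIH helicase, stood at 4.09, 4.38, 3.81 and 2.76 CPM in KO-Drug, at 4.37, 5.09, 8.46 and 5.83 CPM in KO and at 3.61, 4.83, 8.52 and 4.80 CPM in Het. KO and Het overlapped (0.13 on the log2 scale), and KO-Drug vs KO was -0.66 (adjusted p = 0.118). The nuclease pair Ercc1 and Ercc4 and the remodeller Ercc6 changed by 0.32, 0.19 and -0.03 in KO vs Het and were not called.

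None of the 5 mismatch repair genes rose in KO vs Het, beside 23% of all genes tested. Msh3, which recognises larger loops, stood at 7.62, 12.7, 11.8 and 8.39 CPM in KO-Drug, at 9.27, 8.4, 10.7 and 10.7 CPM in KO and at 12.4, 16.9, 16 and 13.4 CPM in Het. KO lay below Het and KO-Drug overlapped both. It fell by 0.59 in KO vs Het (SE 0.18, adjusted p = 0.0196). The call was lost without Het 2, Het 3 or KO 4 (adjusted p 0.0509 to 0.0603), and the change was -0.05 with total-count scaling.

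Msh6, which recognises single mismatches, stood at 21.1, 15.5, 12.7 and 12.2 CPM in KO-Drug, at 21.0, 15.5, 23.1 and 17.0 CPM in KO and at 11.6, 20.0, 18.3 and 17.3 CPM in Het, and Mlh3, a subunit of the nicking step, at 14.8, 17.1, 14 and 15.3 CPM in KO-Drug, at 15.1, 11.9, 18.1 and 16.3 CPM in KO and at 18.9, 18.6, 18.1 and 17.6 CPM in Het. Msh6 (0.19) was not called in KO vs Het, nor was Mlh3 (-0.25; -0.49 with adjusted p = 0.0206 with KO 2 and KO 4 alone). The remaining members are known from meiosis or other settings. Msh4 held 5 reads, all in KO 6, Msh5 held 9 reads in KO-Drug, 29 in KO and 15 in Het, and Rad51ap2 held none, so these 3 did not pass the filter. Rad54l2, a helicase related to the Rad54 genes by sequence, overlapped in all 3 groups with 43.3 ± 9.14 CPM in KO-Drug, 42.6 ± 4.54 CPM in KO and 44.9 ± 12.9 CPM in Het (KO vs Het -0.08, adjusted p = 0.786).

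**Figure D3:**
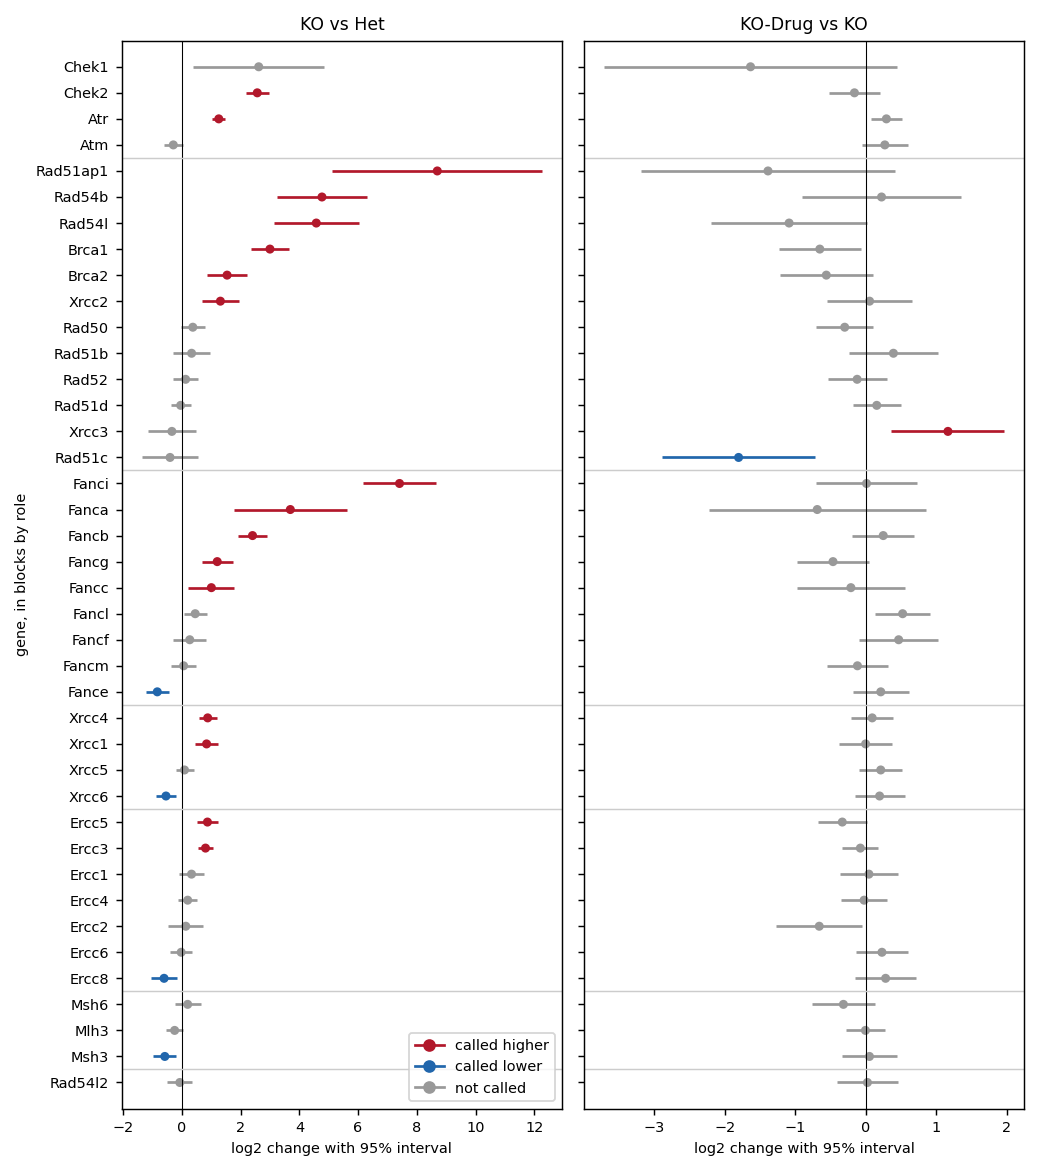
Log2 change with its 95% interval for 40 tested repair genes in KO vs Het (left) and KO-Drug vs KO (right), in blocks by repair route, with the horizontal scales set separately. In KO vs Het, the genes called higher (red) outnumber those called lower (blue), and in KO-Drug vs KO 1 is called in each direction while the rest (grey) have intervals that vary widely in width.

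KO-Drug vs KO asks what the LXR agonist changed in knockout livers. Of the 43 members, 1 was called higher and 1 lower, beside 8.8% of all genes tested called higher, 11% lower and 19.8% in either direction. The median change over the members was -0.00, and -0.02 over all genes. On KO 2 and KO 4 alone, 1 member was called higher (Xrcc3) and 1 lower (Ercc5, in place of Rad51c). Rad51c stood at 0.606, 0.156, 0.276 and 0.159 CPM in KO-Drug, at 0.528, 1.17, 1.63 and 0.930 CPM in KO and at 1.24, 1.92, 1.38 and 1.12 CPM in Het. The lowest KO library lay within the KO-Drug range. It fell by 1.80 in KO-Drug vs KO (SE 0.50, adjusted p = 0.0245) and by 2.21 in KO-Drug vs Het (SE 0.51, adjusted p = 0.00728), while KO vs Het was -0.41 (adjusted p = 0.491). Xrcc3, its partner, stood at 2.22, 2.19, 2.54 and 4.04 CPM in KO-Drug, at 0.645, 1.12, 1.37 and 1.77 CPM in KO and at 2.53, 1.25, 1.16 and 1.28 CPM in Het. KO-Drug lay above KO without overlap and rose by 1.16 (SE 0.37, adjusted p = 0.0425).

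Both calls rest on low levels, and neither held in every fit that left out 1 library. The Rad51c call was lost without KO 4, KO 5, KO-Drug 2, KO-Drug 3 or KO-Drug 4 (adjusted p 0.0551 to 0.068) and with KO 2 and KO 4 alone (-1.42, adjusted p = 0.13). Without KO-Drug 1 the fall was 2.41 against KO and 2.82 against Het. The Xrcc3 call was lost in 8 of 12 fits without 1 library (adjusted p 0.051 to 0.135), and without Het 1 its KO-Drug vs Het change of 0.82 became 1.16 (adjusted p = 0.0458).

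The 18 members that rose in KO were followed into the agonist group. None of them was called in KO-Drug vs KO, and 2 had an unadjusted p under 0.05. Their changes ran from -1.39 to 0.29 with a median of -0.12 (-0.02 over all genes tested), with 12 negative and 6 positive. The 18 were picked by their KO values, and the same KO libraries are the baseline here. A lean towards negative changes is therefore built into the choice. For 12 of the 18 the 95% interval lay within a 2-fold change in either direction, and the widest interval, that of Rad51ap1, ran from -3.19 to 0.42. Over all 43 members, 6 had an unadjusted p under 0.05. DESeq2 in place of edgeR called 3 of the 43 higher and 1 lower. Scaling by total counts called 0 higher and 9 lower, among them Brca1, Brca2, Ercc3, Ercc5 and Fancg of the 18.

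KO-Drug vs Het gives the state of the agonist-fed knockout livers against the same Het libraries. In this comparison 18 members were called higher, 3 lower and 22 neither, beside 13% higher, 8.45% lower and 21.4% in either direction of all genes. The median was 0.72 over the members and 0.00 over all genes. Of these, 17 were called higher in both comparisons with Het, which share their controls, among them Atr, Brca1, Brca2, Chek2, Ercc3, Ercc5, Fanca, Fancb, Fancg, Fanci, Rad51ap1, Rad54b, Rad54l, Xrcc1, Xrcc2 and Xrcc4. The share of all genes called higher in both comparisons was not computed, so the size of this overlap has no measure beside it. Fancc was called in KO vs Het alone and Fancl in KO-Drug vs Het alone. Fance was lower in both, and Rad51c was called lower in KO-Drug vs Het. Rad51b, Fancf and Msh3 were not called there, but leaving out 1 library brought in Rad51b without KO-Drug 2 (0.89, adjusted p = 0.0466), Fancf without Het 3 or KO-Drug 2 (0.89 and 0.84, adjusted p = 0.043 and 0.0494) and Msh3 without Het 1 or KO-Drug 2 (-0.61 and -0.66, adjusted p = 0.0413 and 0.0238).

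Between genes, levels can be compared only per length, as the deposited FPKM (fragments per kilobase and per 1e6 fragments). In Het livers the highest of the 46 were Xrcc5 at 7.38 ± 0.669, Xrcc6 at 6.55 ± 0.418 and Ercc3 at 4.71 ± 0.653 FPKM (SD, n = 4). Xrcc5 and Xrcc6 differed by little more than their spread. Fanci was 43rd in Het at 0.00683 FPKM and 23rd in both knockout groups, at 1.65 ± 0.571 FPKM in KO-Drug and 2.08 ± 0.556 FPKM in KO. Chek2 stood 10th in KO-Drug and 9th in KO, against 27th in Het. Ercc3 and Xrcc5 took the first 2 places in KO-Drug and in KO, with Xrcc5 first in KO-Drug (10.3 ± 0.903 against 8.78 ± 1.08 FPKM) and Ercc3 first in KO (11.9 ± 0.512 against 11.4 ± 0.985 FPKM), where they lay within 1 SD of each other.

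A split of the members by known cell cycle timing was set from textbook knowledge with earlier results of these data known. Of 13 members transcribed mainly in S and G2 phase, 10 rose in KO vs Het, 1 fell and 2 were not called (Chek1 and Msh6), with a median change of 3.00. Of the 30 other tested members, 8 rose and 4 fell, with a median of 0.13, beside 23% higher and 17.7% lower of all genes tested. Several of the 13, among them Rad51ap1, Fanci, Rad54l, Fanca and Rad54b, held at most 16 reads over the Het group. These passed the filter through the knockout libraries and could hardly be called lower there. The split is therefore a description and no independent check. In KO-Drug vs KO none of the 13 was called, with a median of -0.32. Their summed level was 65.2 to 109 CPM in KO-Drug, 86.6 to 131 CPM in KO and 31.4 to 48.0 CPM in Het, so both knockout groups lay above Het and overlapped each other. KO 5 was the highest KO library for 11 of the 18 members that rose and KO 2 the lowest for 10, and KO-Drug 1 was the highest KO-Drug library for 10.

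Most marker lists of other processes and cell types also changed between the groups, with patterns that differed by list. Over all genes tested, 23% were called higher and 17.7% lower in KO vs Het. In KO-Drug vs KO these shares were 8.8% and 11%. Of 20 proliferation genes, 17 rose in KO vs Het and none fell, and in KO-Drug vs KO 6 fell and none rose. Their summed level was 124 to 286 CPM in KO-Drug, with KO-Drug 1 highest, 208 to 373 CPM in KO, with KO 5 highest, and 37.9 to 61.9 CPM in Het. Of 14 p53 targets, 13 rose in KO vs Het and 4 fell in KO-Drug vs KO. All 12 macrophage markers rose in KO vs Het and 10 fell in KO-Drug vs KO, with summed levels of 366 to 851 CPM in KO-Drug, 839 to 2035 CPM in KO and 368 to 489 CPM in Het. KO 2 had the highest macrophage sum of the KO libraries and KO 5 the lowest. KO 5 was also the library with high Xist and low Ddx3y, and the order of libraries within a group was not tested. Of 7 tested T and NK cell markers, 6 rose in KO vs Het and 3 fell in KO-Drug vs KO, with sums of 3.02 to 6.58 CPM in KO-Drug, 7.85 to 23.2 CPM in KO and 2.96 to 5.30 CPM in Het. In KO vs Het, 5 of 5 neutrophil, 4 of 8 stellate, 3 of 6 endothelial, 2 of 7 cholangiocyte and 1 of 3 B and plasma cell markers rose, no erythroid marker was called, and 8 of 9 hepatocyte markers fell. In KO-Drug vs Het, 9 of the 20 proliferation genes and 11 of the 14 p53 targets were called higher. Of the macrophage markers 1 was called higher there, and of the T and NK cell markers 0. Over all genes tested, 13% were called higher in that comparison. The part of these cell types in the repair gene changes was not tested.

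**Figure D4:**
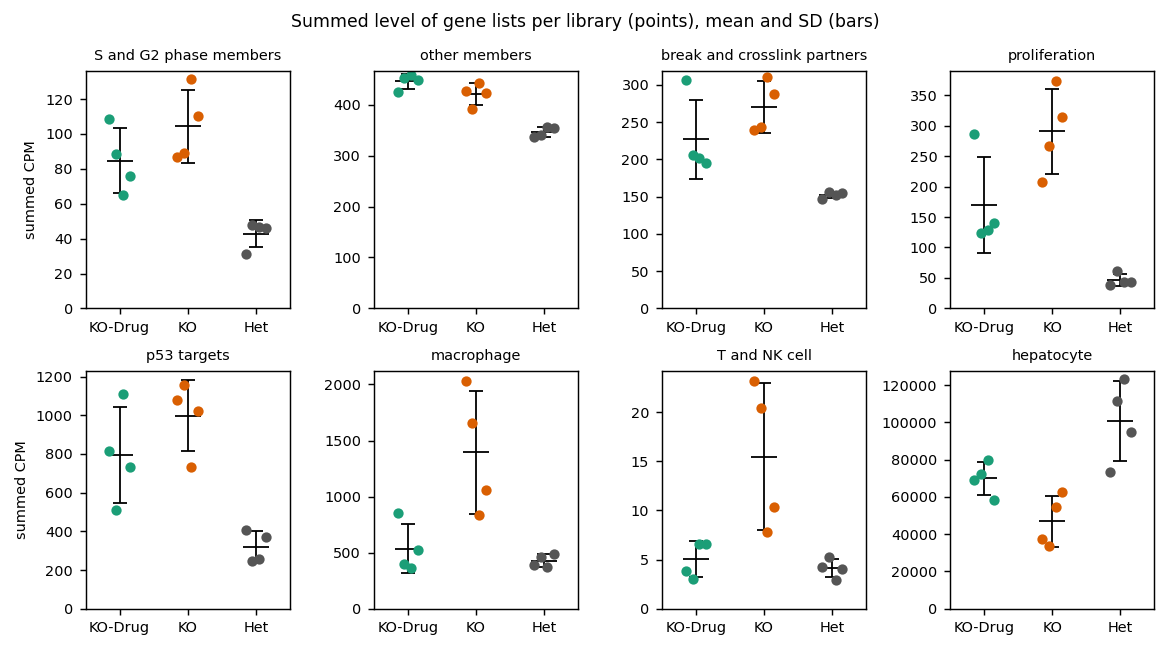
Summed CPM of 8 gene lists in each library (points) with the group mean and SD (bars), for KO-Drug, KO and Het. The S and G2 phase repair genes and the proliferation genes lie above Het in both knockout groups, whereas the macrophage and the T and NK cell markers are high in KO and near the Het level in most KO-Drug libraries.

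Partner genes outside the 46 were read from lists for each route, chosen with earlier results of these data known. Their counts are therefore a description and no independent check of the members. Over all genes tested, 23% were called higher and 17.7% lower in KO vs Het. The genes named here and in the next paragraph are those called among the 4 of each list with the smallest adjusted p in KO vs Het. Of 22 further genes of double-strand break and crosslink repair, 13 rose and 2 fell in KO vs Het, with a median of 1.62, and 1 fell in KO-Drug vs KO. Rad18, the ubiquitin ligase that marks stalled forks, averaged 16.8 ± 2.90 CPM in KO-Drug and 16.2 ± 2.45 CPM in KO, against 1.48 ± 0.242 CPM in Het (log2 3.45 in KO vs Het, SE 0.19, adjusted p = 9.84e-08). Polq, the polymerase of microhomology end joining, averaged 13.6 ± 1.72 CPM in KO-Drug and 10.001 ± 1.72 CPM in KO, against 0.0910 ± 0.182 CPM in Het (log2 6.70, adjusted p = 3.03e-06). Blm, a helicase that dissolves recombination intermediates, rose by 2.55, and Exo1, the nuclease of long-range resection, was listed at 0 in all Het libraries and averaged 2.53 ± 1.05 CPM in KO-Drug and 2.92 ± 0.958 CPM in KO.

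Among 19 tested genes of base excision and single-strand break repair, 4 rose and 3 fell in KO vs Het, near the shares over all genes tested (23% and 17.7%). Mgmt, which removes alkyl groups from guanine, averaged 31.1 ± 7.16 CPM in KO-Drug, 19.0 ± 2.18 CPM in KO and 8.71 ± 1.26 CPM in Het, and was called in each step (KO vs Het 1.12, adjusted p = 0.000236; KO-Drug vs KO 0.71, adjusted p = 0.00964). The glycosylase Neil3 rose by 5.34 and the strand-end processor Aptx by 0.77, and the uracil glycosylase Ung fell by 1.35. Of 17 excision and mismatch partners none rose and 2 fell, the TFIIH subunits Cdk7 (-0.38) and Gtf2h3 (-0.58). Of 20 end joining and damage signalling partners, 5 rose and 2 fell, with Clspn, the adaptor between Atr and Chek1, higher by 3.34, Wee1, the kinase that holds cells in G2, by 1.70, the end joining polymerase Poll by 0.45, and the ubiquitin ligase Rnf168 lower by 0.55. Of 6 translesion genes 2 rose and 1 fell. The translesion polymerase Polk averaged 10.7 ± 0.774 CPM in KO-Drug, 15.5 ± 2.57 CPM in KO and 4.47 ± 1.03 CPM in Het, rising by 1.79 in KO vs Het (adjusted p = 1.31e-05) and falling by 0.53 in KO-Drug vs KO (adjusted p = 0.047). Mad2l2 rose by 0.51 and Rev3l, the catalytic subunit it binds, fell by 0.46 in KO vs Het.

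The size of the split between rises and falls depends on scaling. Scaling by total counts shifts the median of all genes to 0.54 in KO vs Het, -0.36 in KO-Drug vs KO and 0.18 in KO-Drug vs Het, and with it 30 members were called higher and 0 lower in KO vs Het, and 0 higher and 9 lower in KO-Drug vs KO. The statements above are relative to the TMM scale.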

How the data were processed

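Whole liver RNA libraries (TruSeq Stranded Total RNA kit, per the labels' protocols) from 4 KO-Drug, 4 KO and 4 Het mice were analysed. The authors deposited whole-number read counts and FPKM per gene and library, per the file headers. FastQC 0.11.7, StringTie 2.1.3b and build mm10 are named in the submitters' processing notes, with the aligner and annotation not given in the sources used here. In the table, 3 unnamed columns with values for 4 genes were not used. The filterByExpr function (at least 10 counts, 15 in total) set aside 11153 genes, and all 12 libraries entered 1 edgeR quasi-likelihood fit with TMM scaling (edgeR 4.0.16, limma 3.58.1, DESeq2 1.42.0, R 4.3.3). The method was tested on simulated data. Where the Het group held 16 or fewer counts, the ratio has an exact Clopper-Pearson 95% interval, and where it held 0, a floor of 3 counts over the group was used. Of the members, 22 overlap another annotated gene (RefSeq GRCm38), among them Fanci with Polg, Fanca with Zfp276, Fancc with Aopep, Rad54l with Lrrc41, Fancl with Vrk2, Fancb with Mospd2, Xrcc6 with Desi1 and Xrcc3 with Klc1, and reads of shared spans are uncertain. Every called member is named, and values per library are given for at least the 4 reported members of each route with the smallest adjusted p, where a route has as many. Counts cover all members, and a few single members are not reported here. The members and lists were chosen with earlier results of these data known. The deviations of libraries with equal animal numbers correlated at -0.03 to 0.14, so the numbers were not taken as pairs. The 22 alternatives were other scalings, filters, DESeq2, limma on FPKM with pseudocounts of 0.1 and 1, a replicate block, the 2 groups alone, KO 2 and KO 4 alone, and leaving out each library.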

Additional observations from a re-analysis of the deposited data

Results flagged for a closer look

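Within a group of 4 libraries, 1 library stood apart from the other 3 by Dixon's 95% criterion in 6 of 120 groups of values checked (40 genes in 3 groups), and chance gives about 1 in 20. Of the KO-Drug libraries, KO-Drug 1 was far above the others for Fanci (14.3 CPM, the others 8.08 to 8.77), the library with the highest sum of proliferation genes in that group. KO-Drug 2 was far below the others for Fancf (2.29 CPM, the others 3.23 to 3.31). KO 2 was far above the other KO libraries for Fancg (5.16 CPM, the others 4.01 to 4.20). Of the Het libraries, Het 1 was far above the others for Xrcc3 (2.53 CPM, the others 1.16 to 1.28) and for Rad54b (0.722 CPM, the others 0 to 0.102), and Het 4 for Fanci (0.204 CPM, the others listed at 0). The Fanci flag in Het 4 rests on 4 reads and the Rad54b flag in Het 1 on 14. Whether anything beyond chance sets these libraries apart was not tested.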

How the results depend on the processing

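Of the calls in KO vs Het, 15 of 23 held in every alternative that tested the gene. In KO-Drug vs Het 15 of 21 did, and in KO-Drug vs KO 0 of 2. There were 22 alternatives, and Rad51c and Fanca did not pass the one with a minimum count of 30. In KO vs Het, members called higher were 30 with total-count scaling and 29 with limma on FPKM at either pseudocount, and members called lower were 0 with total-count scaling, 2 with the replicate block, and 0 and 1 with FPKM at pseudocounts of 0.1 and 1. Leaving out 1 library gave 17 to 19 higher and 3 to 5 lower. In KO-Drug vs KO, members called higher were 0 with total-count scaling, without a filter, with the replicate block, with the 2 groups alone and with FPKM, 3 with DESeq2, and 0 to 3 without 1 library. Members called lower were 9 with total-count scaling, 0 with a minimum count of 30, 12 and 13 with FPKM at 0.1 and 1, and 0 to 3 without 1 library. All genes called in KO-Drug vs KO were 4255 with total-count scaling, 1741 with the replicate block, 4781 and 4923 with FPKM at 0.1 and 1, and 1599 to 2994 without 1 library, against 2654. In KO-Drug vs Het, leaving out 1 library gave 14 to 18 higher, 2 to 4 lower and 2258 to 2862 genes in all, and in KO vs Het 4667 to 5465 genes. With total-count scaling, Rad51d and Ercc6 turned positive in KO vs Het, at 0.47 (adjusted p = 0.046) and 0.50 (adjusted p = 0.0307). With the replicate block, 16 members were higher and 2 lower in KO vs Het, 0 and 1 in KO-Drug vs KO (Rad51c lost its call, at -1.70 with adjusted p = 0.189, and Ercc5 gained one, at -0.65 with adjusted p = 0.0428), and 16 and 3 in KO-Drug vs Het, and the numbers are not known to pair the animals. The cause of these shifts was not tested, apart from the scaling, which moves all genes together. With levels under about 1 CPM in Het, counts limit the size of the largest changes, and their direction did not change in any alternative.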
